A study of Mus musculus with 3 samples.

Results

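Proteasome subunit genes were taken as the genes whose symbol starts with Psm, a letter from a to g and a number, leaving out Psmc3ip, a gene of meiotic recombination. The rule found 48 of the 14133 genes measured, and all 48 had a gene model in the annotation of mm10 (GRCm38), on 16 chromosomes. They are 7 genes of the alpha ring and 7 of the beta ring of the standard core, 4 core subunits restricted to some tissues, 9 genes of the base and 8 of the lid of the regulatory cap, 7 assembly factors, and 6 activators and inhibitors. Psmb8, the third subunit of the immunoproteasome, was not analysed here.

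The cells were primordial germ cells, the embryonic precursors of eggs and sperm, of female C57BL/6 mice. They were sorted from fetal ovaries for Oct4-EGFP, a reporter of the pluripotency gene Pou5f1, at embryonic day 12.5, 14.5 or 16.5 (E12.5, E14.5 and E16.5). All 3 groups carry the reporter, and no group was treated. Each stage was 1 droplet library of 3' ends, and the number of embryos behind it is not given in the sources used here, so stage and library cannot be told apart and no difference between stages could be tested.

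The libraries held 4706 cells at E12.5, 9075 at E14.5 and 5363 at E16.5, with 125648312, 104214125 and 69821387 unique molecular identifiers (UMIs, each marking 1 captured RNA molecule). Depth differed, with a median of 26692 UMIs per cell at E12.5 against 10960 and 12659. Of the 9 clusters, 8 were germ-cell-like, with 17 to 26 of 26 germ cell markers and 0 or 1 of 17 markers of pregranulosa cells, the somatic supporting cells of the ovary. They held 4684, 8905 and 5312 cells in time order, and the pregranulosa-like cluster held 19, 164 and 22. That cluster had all 17 pregranulosa markers, but also 22 of the 26 germ cell markers in 10% or more of its cells, so its levels can include germ cell RNA. Although the cells are labelled female, 667 of the 4684 germ-cell-like cells at E12.5 had a UMI of a Y-linked gene, and results with and without them are given. Cluster 2, with 622 cells, all of E12.5, had the Y-linked genes Zfy1, Uba1y, Ddx3y, Eif2s3y and Uty among its most enriched genes. Between 43 and 72 cell barcodes were shared by each pair of libraries. At E16.5, 85 germ-cell-like cells fell in a cluster that E14.5 cells mostly make up. Levels are UMIs per 1000000 (CPM) summed over the germ-cell-like cells of a stage, with an exact Poisson 95% interval that covers counting error only. A UMI stands for 1 RNA end whatever the length of the gene, so levels were not divided by length. No source used here says whether strand entered the counting, and 17 of the 48 genes overlap a gene model on the other strand, among them Psma4, Psme1, Psmd1, Psmd9 and Psmb9, whose reads may then include those of the other gene.

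The proteasome takes apart proteins that carry ubiquitin. Its core is a barrel of stacked rings, with alpha subunits as outer gates and beta subunits inside, 3 of which cut. The cap has a base of ATPases that unfold the substrate and a lid that removes the ubiquitin, and other activators can dock in its place. Germ cells are known to use special forms of the core and of the activators, and the proteasome is found along meiotic chromosomes.

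Proteasome RNA made up a smaller share of the transcripts at each later stage. The 48 genes together stood at 13104 CPM at E12.5 (13084 to 13124), at 9500 at E14.5 (9481 to 9519) and at 7814 at E16.5 (7793 to 7835). In sums over cells of this kind fewer expressing cells and less RNA per cell cannot be told apart. The standard core stood at 8152, 5702 and 4195 CPM, lower at each step, whereas the cap stood at 3600, 2659 and 2646 CPM, with nearly all of its difference before E14.5. Assembly factors did not follow that order, with 683, 651 and 762 CPM. The share of the core among proteasome UMIs was thereby 62.2%, 60.0% and 53.7%, and that of the cap 27.5%, 28.0% and 33.9%.

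**Figure D1:**
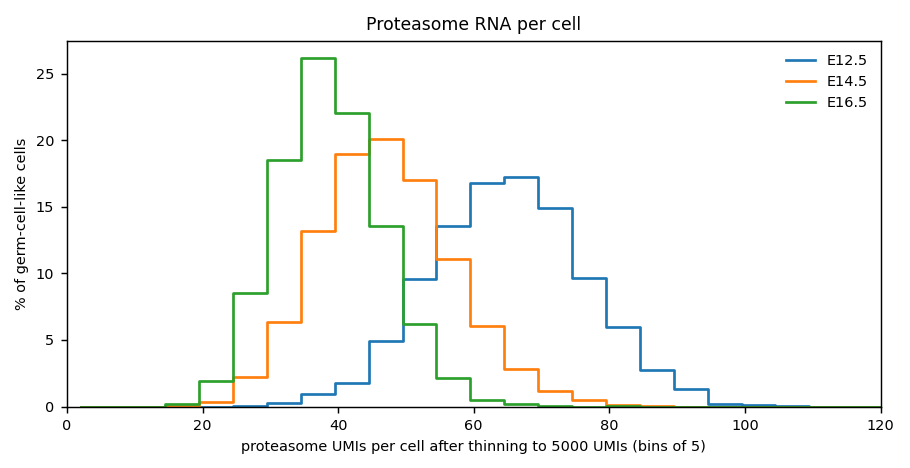
Proteasome UMIs per germ-cell-like cell after every cell was thinned to 5000 UMIs (x axis, bins of 5 UMIs) against the percentage of cells of the stage (y axis), 1 line per stage. The medians are 65 UMIs at E12.5, 47 at E14.5 and 38 at E16.5, and the distributions overlap.

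The lower share was a property of the bulk of the cells, not of a few. With each cell thinned to 5000 UMIs, the middle 80% of E12.5 cells had between 102 and 160 proteasome UMIs per 10000, those of E14.5 between 70 and 120, and those of E16.5 between 58 and 98. No second peak is seen in the distributions of proteasome RNA per cell. Cells of 1 stage varied more than counting alone gives, with a standard deviation 2.44, 1.79 and 1.55 times the counting value, or 1.40, 1.43 and 1.25 times after thinning. The coefficient of variation beyond counting error was 12.4%, 14.9% and 12.3%.

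Between E12.5 and E14.5, 34 of the 47 proteasome genes with a ratio were lower, where 40.4% of all genes were. By 1.5-fold or more, 22 were lower (24.3% of all genes), and 7 were lower by 2-fold or more, or 14.9% of 47, near the 16.2% of all genes. Psmb9 was the only one higher by 2-fold or more, against 31.1% of all genes. The median log2 ratio was -0.47, against 0.30 over all genes, a distance of -0.77 that scaling does not alter. Because that median of all genes is not 0 under CPM, the count of genes lower by 2-fold or more was 16 of 47 under TMM scaling (21.1% of all genes) and 18 of 47 under median-of-ratios scaling (22.3%), which set it near 0. Without the cells with Y-linked UMIs, 7 genes were lower by 2-fold or more (16.2% of all genes) and 21 by 1.5-fold or more (24.1%).

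Between E14.5 and E16.5, 32 of 48 were lower (47.2% of all genes), 9 by 1.5-fold or more (25.6%) and 7 by 2-fold or more (17.4%). Psmd9 and Psmb11 were higher by 2-fold or more, against 16.3% of all genes. The median log2 ratio was -0.22, against 0.06 over all genes. Over the whole span, from E12.5 to E16.5, 34 were lower (41.6% of all genes), 24 of them by 1.5-fold or more (29.5%) and 13 by 2-fold or more (22.7%), and Psmb11 and Psmg4 were higher by 2-fold or more (37.0%). The median was -0.59, against 0.39 over all genes. Without the cells with Y-linked UMIs the 2 counts of lower genes were 24 (29.5% of all genes) and 12 (22.6%). Under TMM scaling 22 were lower by 2-fold or more over the span (28.5% of all genes), and under median-of-ratios scaling 23 (28.8%). Among genes with 10 CPM or more at 1 of the stages compared, 44 of the 48 took part, and 7, 5 and 12 of them were lower by 2-fold or more in the 3 comparisons, against 15.3%, 11.3% and 21.9% of all such genes. Under CPM the share of proteasome genes lower by 2-fold or more was thus near that of all genes at each step, whereas under the other scalings it was above that of all genes at the first step and over the span. Leaving out the 85 E16.5 cells of the E14.5 cluster, a choice made after seeing the data, left 7 genes lower by 2-fold or more against E14.5 (18.3% of all genes) and gave 15 against E12.5 (23.2%). The 3 comparisons share libraries and are not independent of each other.

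**Figure D2:**
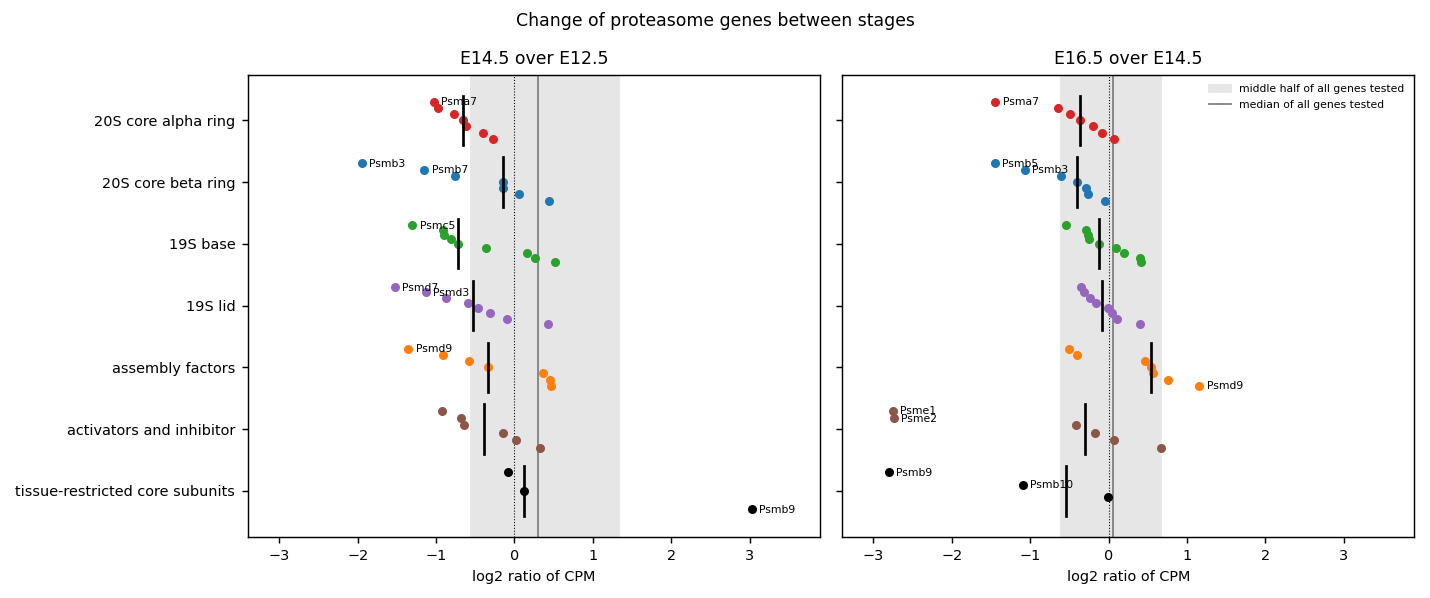
Log2 ratio of CPM for each proteasome gene (points) by role (rows), for E14.5 over E12.5 (left) and E16.5 over E14.5 (right). Black bars are the median of a role, the grey line and band the median and middle 50% of all genes, and genes past 2-fold are named. Psmb11 is not drawn, because it had 0 UMIs at E14.5. Psmb3 stands apart on the left, and Psme1 and Psme2 on the right.

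In the alpha ring, whose subunits gate the entrance of the core, all 7 genes were lower at E14.5 than at E12.5 (40.4% of all genes). Their ratios lay between -1.03 for Psma7 and -0.28 for Psma6 on the log2 scale. Psma7 stood at 747 CPM at E12.5 (742 to 752), 366 at E14.5 (362 to 370) and 134 at E16.5 (132 to 137). It was, with Psma2, the highest gene of the ring at the first stage. At the last stage Psma2 was still the highest, at 379 CPM, whereas Psma7 was the lowest, 5.56-fold lower than at E12.5 (5.44 to 5.68). Psma4 followed a like course with 554, 282 and 180 CPM, 3.08-fold lower over the span. Psma6, at 412, 340 and 319 CPM, differed least, and Psma5, at 371, 217 and 228 CPM, was the only one not lower at E16.5 than at E14.5 (1.05-fold higher, and lower under TMM scaling). Psma1, Psma2 and Psma3 were lower at both steps, between 1.15-fold and 1.58-fold.

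The beta ring holds the 3 cutting subunits, Psmb6, Psmb7 and Psmb5, and 4 structural ones, and its genes moved apart. Psmb3, a structural subunit, stood at 538 CPM at E12.5 (534 to 542), 140 at E14.5 (137 to 142) and 66.4 at E16.5 (64.5 to 68.3). Its ratio of -1.95 at the first step was the lowest of all the proteasome genes, and over the span it was 8.10-fold lower (7.86 to 8.35). Psmb5, which encodes the chymotrypsin-like activity, stood at 678, 401 and 146 CPM, and most of its 4.63-fold difference (4.54 to 4.73) lay in the second step. Psmb7, the trypsin-like subunit, had its larger difference in the first step, with 571, 257 and 210 CPM. Psmb6, the caspase-like subunit, stood at 778, 807 and 531 CPM; it was 1.04-fold higher at E14.5 under CPM and lower under TMM and median-of-ratios scaling. Psmb4 was 1.36-fold higher at E14.5 (354 to 483 CPM) and stood at 366 CPM at E16.5. Psmb1 (652, 591 and 574 CPM) and Psmb2 (685, 618 and 516 CPM) stayed within 1.33-fold over the span. The 3 cutting subunits, which each core particle holds in equal number, thus stood at 778, 678 and 571 CPM at E12.5 and at 531, 146 and 210 CPM at E16.5.

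**Figure D3:**
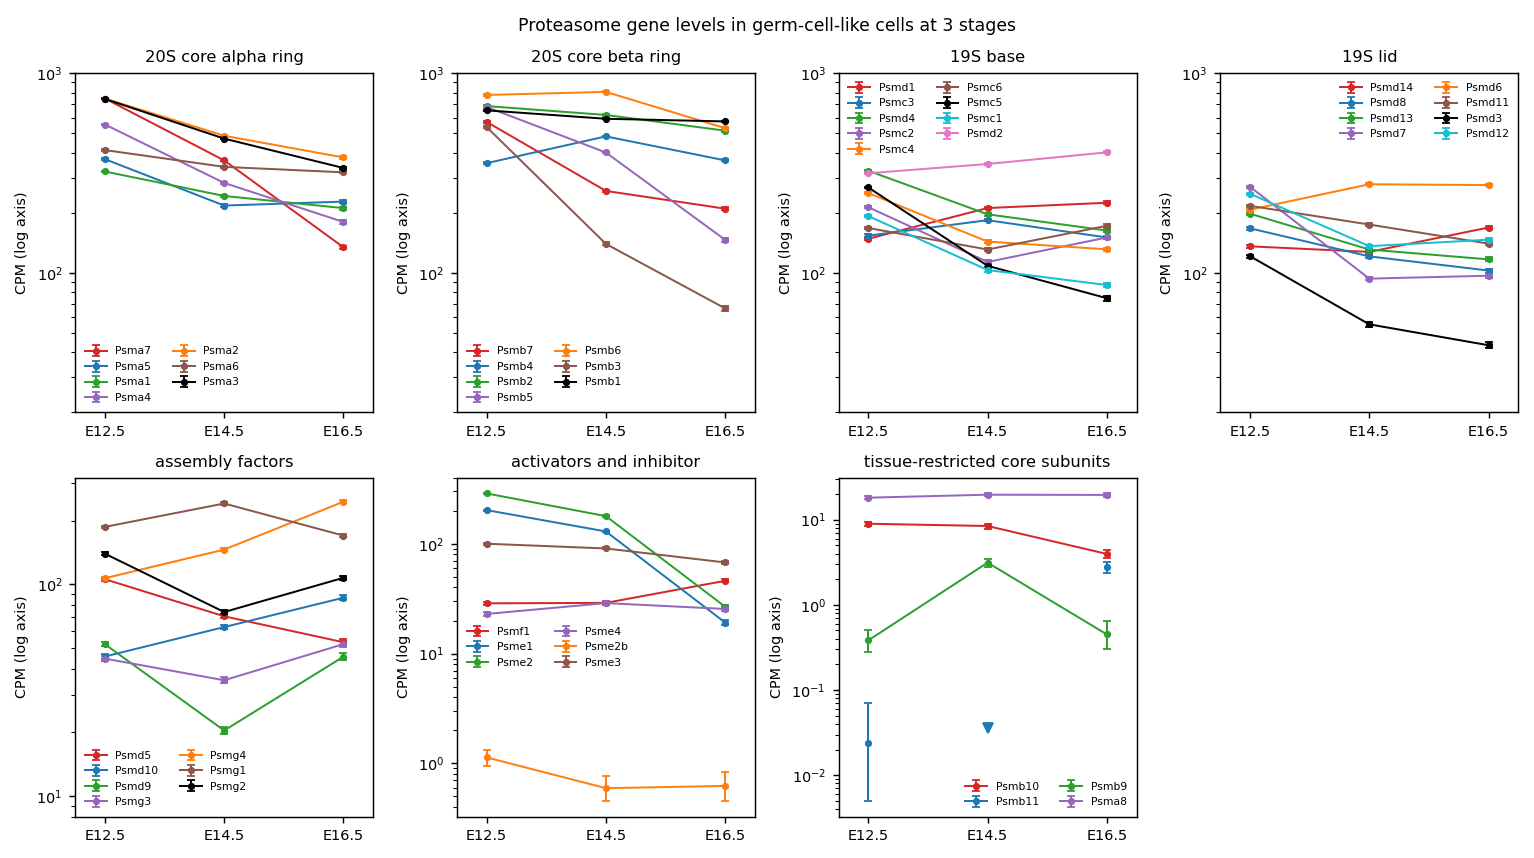
CPM (log axes) of each proteasome gene at the 3 stages, 1 panel per role, with exact Poisson 95% intervals as bars, most of them smaller than the points. The triangle marks the upper limit for Psmb11 at E14.5, where it had 0 UMIs. The 7 genes of the beta ring lie within 2.20-fold of each other at E12.5 and spread to 8.64-fold at E16.5.

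Within a ring or cap part, where subunits are built in at equal number, RNA levels were more alike at E12.5 than later. The highest gene of the beta ring was 2.20-fold above the lowest at E12.5, 5.77-fold at E14.5 and 8.64-fold at E16.5. The base went from 2.19-fold to 3.40-fold and 5.38-fold, and the lid from 2.22-fold to 5.03-fold and 6.34-fold. The alpha ring did not, with 2.32-fold, 2.24-fold and 2.82-fold. These ratios are taken within a stage, so scaling between stages does not enter them. Other complexes went either way. The translation factor eIF3 went from 3.41-fold to 4.90-fold and 7.85-fold, and the chaperonin CCT from 1.62-fold to 1.41-fold and 2.56-fold. The COP9 signalosome, a relative of the lid, went from 13.5-fold down to 8.56-fold and 6.39-fold. Its list holds both Cops7a and Cops7b, and Cops7b was the lowest gene at every stage (21.7, 22.4 and 37.9 CPM). The COP9 ratios thus rest on that gene and may not be a like measure of spread. A wider spread at later stages was not particular to the proteasome, since eIF3 had it too.

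**Figure D4:**
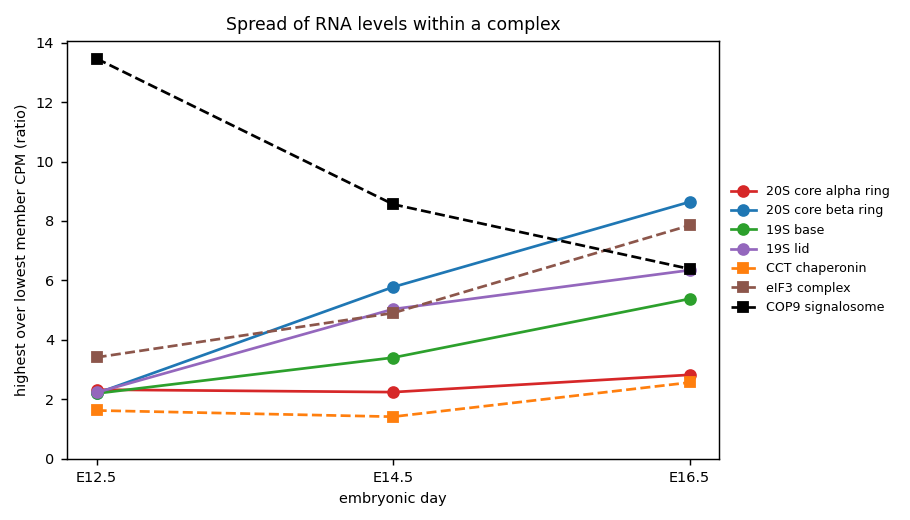
Ratio of the highest to the lowest member CPM within a complex (y axis) at the 3 stages (x axis), for the 4 parts of the proteasome (solid lines, circles) and 3 other complexes (dashed lines, squares). The beta ring, base and lid start from about the same ratio at E12.5 and end higher. The COP9 signalosome, whose lowest gene is Cops7b at every stage, ends lower.

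In the base, the ATPase genes Psmc1 to Psmc6 and the scaffold genes differed. Psmc5 had the lowest ratio of the base at both steps, with 268 CPM at E12.5 (265 to 271), 109 at E14.5 (107 to 111) and 74.7 at E16.5 (72.7 to 76.8). Psmc1 and Psmc4 were likewise lower at both steps (193 to 103 to 86.9 CPM and 251 to 143 to 131 CPM). Psmc2 stood at 213, 113 and 150 CPM, and Psmc6 at 168, 131 and 172 CPM, so that both were lowest at E14.5. Psmc3 (154, 184 and 150 CPM) was highest there under CPM, a direction that the first step loses under TMM and median-of-ratios scaling. Psmd1, one of the 2 large scaffold subunits, had the highest ratio of the base at E14.5, with 148 CPM at E12.5 (146 to 150), 211 at E14.5 (209 to 214) and 225 at E16.5 (221 to 228). Psmd2, the other scaffold, stood at 315, 351 and 402 CPM, higher at each step under CPM and lower at the first step and over the span under the other scalings. Psmd4, a receptor for ubiquitin chains, was 1.99-fold lower over the span (325, 197 and 163 CPM).

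The lid had 7 of 8 genes lower at E14.5 (40.4% of all genes). No lid gene differed by 1.5-fold between E14.5 and E16.5, where 25.6% of all genes were lower and 27.4% higher by as much. Psmd7, the partner of the deubiquitinase, stood at 270 CPM at E12.5 (267 to 273), 93.6 at E14.5 (91.7 to 95.5) and 96.8 at E16.5 (94.5 to 99.1). Its 2.88-fold difference lay wholly in the first step. The deubiquitinase gene itself, Psmd14, stood at 136, 127 and 169 CPM, so the ratio of the 2 partners differed between stages. Psmd3 was the lowest lid gene at every stage, with 121, 55.3 and 43.4 CPM. Psmd6 was the only lid gene higher at E14.5, with 207, 278 and 275 CPM. Psmd8, Psmd11, Psmd12 and Psmd13 were between 1.24-fold and 1.83-fold lower at E14.5.

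Of the assembly factors, which build the rings and the base and leave the finished particle, 5 of 7 were higher at E16.5 than at E14.5. Of all genes, 47.2% were lower at that step. Psmg4, of a chaperone pair of the alpha ring, stood at 107 CPM at E12.5 (105 to 109), 146 at E14.5 (144 to 149) and 246 at E16.5 (242 to 250), 2.30-fold higher over the span. Its partner Psmg3 stood at 44.7, 35.3 and 52.3 CPM. The other pair was Psmg1, at 187, 241 and 170 CPM, and Psmg2, at 140, 74.1 and 108 CPM, whose levels went opposite ways at both steps. Among the chaperones of the base, Psmd10 was higher at each step (45.7, 63.0 and 86.6 CPM), Psmd5 lower at each step (106, 70.8 and 53.4 CPM), and Psmd9 2.56-fold lower and then 2.23-fold higher (52.2, 20.4 and 45.6 CPM).

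The activator genes Psme1 and Psme2 encode the alternating subunits of 1 ring-shaped activator, known for its induction by interferon and its part in making peptides for MHC class I. They had the lowest ratios after Psmb9 at the second step. Psme1 stood at 202 CPM at E12.5, 129 at E14.5 (127 to 132) and 19.2 at E16.5 (18.1 to 20.2). Psme2 stood at 287 CPM (284 to 290), 178 (176 to 181) and 26.7 (25.5 to 27.9). The intervals of the 3 stages do not overlap for either gene, and over the span the genes were 10.6-fold (10.0 to 11.2) and 10.8-fold (10.3 to 11.3) lower. The ratio of Psme1 to Psme2 was nonetheless 0.705 (0.694 to 0.716), 0.725 (0.709 to 0.742) and 0.718 (0.668 to 0.771), so the 2 subunit genes kept their proportion. At E16.5 a UMI of Psme1 was found in 16.9% of germ-cell-like cells, against 72.7% of the 22 pregranulosa-like cells, at median depths of 12632 and 12462 UMIs; there Psme1 stood at 163 CPM and Psme2 at 159 CPM. The other activators moved little. Psme3, a nuclear activator, stood at 100.1 CPM, 90.6 and 67.6, and Psme4, an activator of germ cells and DNA repair, at 22.9, 28.8 and 25.5. At E16.5 Psme3 was 3.53-fold above Psme1, where it had been at 0.494 of it at E12.5. Psmf1, which encodes an inhibitor of the core, was 1.59-fold higher at E16.5 than at E14.5 (28.7, 28.9 and 46.0 CPM). Psme2b is a near copy of Psme2, and with 142, 61 and 43 UMIs its counts are uncertain, since reads may be shared between the 2.

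Stretches before the start sites of 4 genes are shown, the activator pair that kept its proportion and the 2 beta subunits whose levels were lowest against E12.5. The sequences are from RefSeq (build GRCm38.p6), read 5′ to 3′ on the strand of the gene, with matches to the motifs searched in capitals and all other bases in lower case. Only bases outside annotated exons are given. The Psme1 stretch (chr14:55578249-55578359, plus strand) ends 135 bases before the start, inside an intron of a longer transcript. The Psme2 stretch is chr14:55591114-55591313 (minus strand), the Psmb5 stretch chr14:54618023-54618222 (minus strand) and the Psmb3 stretch chr11:97703199-97703398 (plus strand).
Psme1: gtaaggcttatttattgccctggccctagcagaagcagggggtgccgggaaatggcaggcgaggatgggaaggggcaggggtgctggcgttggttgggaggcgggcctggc
Psme2: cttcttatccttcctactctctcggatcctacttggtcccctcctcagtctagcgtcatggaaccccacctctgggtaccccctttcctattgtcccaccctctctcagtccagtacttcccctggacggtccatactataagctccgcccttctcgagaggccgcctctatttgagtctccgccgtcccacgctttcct
Psmb5: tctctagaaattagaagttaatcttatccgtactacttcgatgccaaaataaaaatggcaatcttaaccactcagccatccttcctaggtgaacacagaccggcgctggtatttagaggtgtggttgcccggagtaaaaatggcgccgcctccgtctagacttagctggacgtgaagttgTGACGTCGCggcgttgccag
Psmb3: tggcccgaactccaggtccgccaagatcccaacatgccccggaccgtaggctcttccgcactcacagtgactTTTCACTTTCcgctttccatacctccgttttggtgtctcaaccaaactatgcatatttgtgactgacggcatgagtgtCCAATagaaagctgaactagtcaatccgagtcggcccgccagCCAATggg

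The motifs were searched on both strands in the 250 bases before the start of 40 of the 48 genes, those with a RefSeq entry, and of 10543 genes of the table. Psmb5 has 1 match to the antioxidant response element TGACNNNGC, the motif that the proteasome factor Nfe2l1 is known to bind, and 5 of the 40 genes have one (12.5%, against 14.0% of all genes). Psmb3 has 2 CCAAT boxes (CCAAT; 35.0% of proteasome genes against 40.8% of all) and 1 match to the interferon response element (GAAA, any 2 bases, GAAA), which is read here on the other strand (7.50% against 2.81%). The ETS site CCGGAAG was found in 12 of 40 genes (against 15.4% of all), the E2F site TTCCCGC in 3 (7.50%, against 8.33%) and the NRF1 palindrome in 1 (2.50%, against 1.90%). Neither Psme1 nor Psme2 has any of them in this window. A match describes these letters and is not shown to be a site.

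Core subunits restricted to some tissues were rare in these cells. Psma8, which takes the place of Psma7 in the core of male germ cells during meiosis, stood at 18.1 CPM at E12.5 (17.4 to 18.9), 19.6 at E14.5 (18.8 to 20.5) and 19.5 at E16.5 (18.5 to 20.6). It stood within 1.08-fold of its first level under CPM, and was lower at E14.5 under both other scalings, while Psma7 was lower at each step. The ratio of Psma7 to Psma8 was 41.3 (39.6 to 43.0), 18.6 (17.8 to 19.5) and 6.89 (6.50 to 7.30). A Psma8 UMI was found in 37.1%, 19.5% and 21.2% of germ-cell-like cells, at different depths, and in 8.69%, 9.20% and 9.38% after thinning to 5000 UMIs. Among pregranulosa-like cells it was found in 0 of 19 at E12.5 (3 counts would be 15.8% of them; this limits cells with a UMI, not cells with the RNA) and in 3.05% of 164 at E14.5, where it stood at 3.27 CPM and the median depth was 8457 UMIs, against 11003 in germ-cell-like cells.

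Psmb11, the cutting subunit of the thymus form of the core (chromosome 14, 54621433 to 54629556, 3411 bases from Psmb5), had 3 UMIs at E12.5, 0 at E14.5 and 190 at E16.5. Against the level that 3 counts over the group would give at E14.5, its level at E16.5 was 94.2-fold higher. The exact 95% interval of the ratio, taken with the 0 UMIs found, starts at 75.8. Against E12.5 the ratio was 115 (38.8 to 563). Even then it stood at 2.75 CPM (2.38 to 3.18), where Psmb5 was 53.1-fold higher. Its UMIs came from 176 of the 5312 cells (3.31%), with at most 3 in a cell, and the 22 pregranulosa-like cells had 0, too few cells to show a share as low as that one.

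Psmb9 and Psmb10 replace Psmb6 and Psmb7 in the immunoproteasome. Psmb9 had 48, 321 and 31 UMIs, or 0.383 CPM (0.282 to 0.508), 3.13 (2.80 to 3.49) and 0.449 (0.305 to 0.638), 8.17-fold higher at E14.5 (6.02 to 11.3) and 6.97-fold lower after it (4.81 to 10.4). Tap1, a peptide transporter gene that overlaps Psmb9 on the other strand and was chosen after its values were seen, stood at 0.239, 3.17 and 0.536 CPM. Without knowing how strand was used, reads from the stretch where Psmb9 and Tap1 overlap cannot be told apart. How many reads come from that stretch was not tested. Psmb10 stood at 8.95 CPM, 8.43 (7.87 to 9.01) and 3.96 in germ-cell-like cells, 2.13-fold lower at the second step, and in pregranulosa-like cells at 39.2 CPM at E14.5 (29.9 to 50.5) and 37.3 at E16.5 (18.6 to 66.7). Genes that act beside the immunoproteasome and Psme1 in MHC class I presentation, also chosen after their values were seen, went in both directions. H2-K1, an MHC class I heavy chain, stood at 4.15, 237 and 568 CPM and B2m, its light chain, at 2.09, 22.6 and 21.8. Tapbp, which helps load the peptide, and Irf1, an interferon response factor, were lower at each step, as the activator pair was. Tapbp stood at 20.6, 3.86 and 2.80 CPM and Irf1 at 22.2, 8.19 and 3.02 CPM.

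Within stages, proteasome genes differed between clusters of cells most at E14.5 and E16.5. The clusters were formed without the 48 genes, and they are cells of 1 library, so their differences are descriptions. At E14.5, clusters 1, 5 and 6 stood at 2366, 5173 and 9218 CPM for the summed list of genes of the meiotic axis and synapsis, and at 10190, 9413 and 8584 CPM for the proteasome genes. Psma4 stood at 423, 257 and 113 CPM in them (416 to 430, 252 to 262 and 108 to 117), which is a 3.76-fold range within 1 library. Psmb5 stood at 540, 391 and 199 CPM, Psma7 at 493, 354 and 187, and Psme1 at 161, 143 and 47.7. Psmd1 went the other way, with 146, 210 and 318 CPM, and Psmg4 did so with 127, 144 and 183. For the genes named so far, the order over these clusters is that seen from E12.5 to E16.5, but not every proteasome gene kept it. Psmb4 stood at 356 CPM in cluster 1 and 580 in cluster 6, against 354 at E12.5 and 366 at E16.5. Psma8 stood at 22.5 CPM in cluster 1 and 8.92 in cluster 6, against 18.1 at E12.5 and 19.5 at E16.5. How many of the other genes kept the order was not counted. Median depth moved with the clusters too, at 13294, 11144 and 8836 UMIs, and its part in the result was not tested.

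At E16.5, the 85 cells of cluster 1 stood near the E14.5 cells of that cluster, with Psmb5 at 480 CPM and Psma4 at 446, against 156 and 118 in cluster 7 and 121 and 207 in cluster 8. Psme2 stood at 152 CPM in them (134 to 171), at 41.0 in cluster 7 (38.5 to 43.5) and at 10.1 in cluster 8 (9.17 to 11.2), and these intervals do not overlap. Clusters 7 and 8, which make up most of the library, differed from each other in both directions. Psmd1 stood at 347 CPM in cluster 7 (340.3 to 355) and at 147 in cluster 8 (143 to 150), whereas Psma8 stood at 11.1 CPM in cluster 7 (9.86 to 12.5) and at 24.6 in cluster 8 (23.1 to 26.2). Psmb11 was nearly all in cluster 8, with 180 of 190 UMIs and 4.44 CPM (3.81 to 5.13), against 10 UMIs and 0.390 CPM (0.187 to 0.717) in cluster 7. Median depth was 20585 UMIs in the 85 cells of cluster 1, and alike in clusters 7 and 8, at 12582 and 12600 UMIs; its part in the first difference was not tested. Cluster 7 had more of the meiotic axis list (12149 against 9846 CPM) and of the S phase list (2504 against 1826 CPM).

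**Figure D5:**
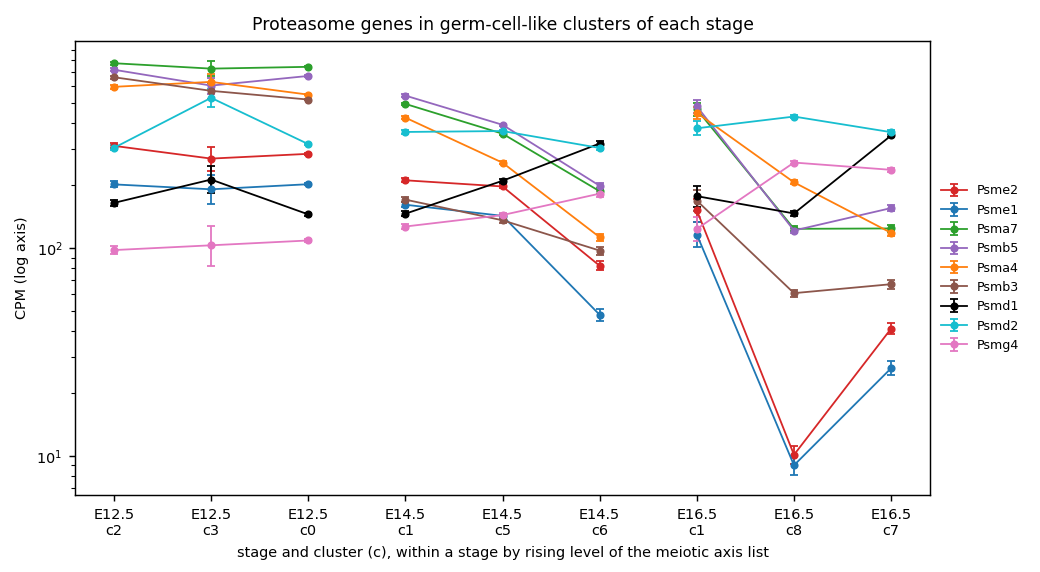
CPM (log axis) of 9 proteasome genes in the germ-cell-like clusters of each stage with at least 50 cells (x axis), ordered within a stage by the summed level of the meiotic axis list, with exact Poisson 95% intervals as bars. Across the E12.5 clusters no plotted gene differs by more than 1.74-fold (Psmd2), and Psme1, Psme2, Psma4, Psma7 and Psmb5 are lower from left to right across the E14.5 clusters while Psmd1 is higher.

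Ordering the cells of a stage by the meiotic axis list gave the same picture as the clusters at E14.5, but only in part at E16.5. At E14.5 the summed proteasome level was 10060, 9652, 9199 and 8815 CPM over 4 equal groups of cells, from the lowest to the highest level of the list. Of the 44 proteasome genes with at least 10 CPM, 16 were lower by 1.5-fold or more in the highest group than in the lowest (22.0% of all genes) and 9 by 2-fold or more (12.0%), and Psmd1 alone was higher by 2-fold or more (2.24-fold, where 16.6% of all genes were). Psma4 stood at 417, 308, 216 and 125 CPM over the 4 groups and Psmd1 at 143, 180, 240 and 321 CPM. Median depth was 13350 UMIs in the lowest group and 8972 in the highest, and with all cells thinned to 5000 UMIs the log2 ratio of the summed level was -0.20, against -0.19. At E16.5, 5 genes were lower by 2-fold or more in the highest group (6.22% of all genes), Psme2, Psme1, Psma7, Psma8 and Psma4. The summed level was 8203 CPM in the lowest group and 7626 in the highest. Clusters 7 and 8 followed that order only in part. Cluster 7, with more of the list, stood above cluster 8 in the summed level, at 7966 against 7614 CPM. It was also higher in Psme1, Psme2 and Psma7, and lower in Psma4 and Psma8. At E12.5 none differed by 1.5-fold (0.527% of all genes were lower and 1.07% higher by that much).

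At E12.5 the spread followed other lists, by small amounts. From the lowest to the highest of 4 equal groups by the S phase list, the summed proteasome level was 1.13-fold higher and 41 of 44 genes were higher (54.8% of all genes), but 0 by 1.5-fold (2.94% of all genes). The cells with a Y-linked UMI stood at 14297 CPM (14243 to 14351), against 12892 (12870 to 12914) in the others, with 39 of 45 genes higher (50.3% of all genes), and Psmb10 was the only one past 1.5-fold (6.38% of all genes), at 14.9 against 7.90 CPM.

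Partners of the proteasome that fall outside the naming rule differed by 1.5-fold or more at the first step only. Of 9 partners measured, 1 was higher at E14.5 by 1.5-fold or more and 2 lower by as much, where 41.5% and 24.3% of all genes were. By 2-fold or more, 1 was higher and 0 lower, where 31.1% and 16.2% of all genes were. Between E14.5 and E16.5, 0 differed by 1.5-fold, where 25.6% of all genes were lower and 27.4% higher by as much. Pomp, which matures the core, stood at 396, 228 and 166 CPM, and Adrm1, a ubiquitin receptor of the cap, at 228, 141 and 143. AI314180, which encodes the core-cap adaptor Ecm29, was higher at each step, at 19.1, 67.4 and 91.6 CPM. Of the 10 genes that control proteasome levels, 1 was higher and 1 lower at E14.5 by 2-fold or more (31.1% and 16.2% of all genes). The transcription factor gene Nfe2l1 stood at 48.7, 55.9 and 33.7 CPM, and Ngly1, whose enzyme helps activate that factor, at 7.08, 27.0 and 53.4.

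Upstream of the proteasome, the 2 enzymes that start ubiquitin transfer stood in opposite order at E12.5 and E16.5. Uba1 stood at 193, 178 and 59.0 CPM and Uba6 at 20.1, 129 and 115 CPM, so that their ratio was 9.58 (9.20 to 9.99), 1.38 (1.35 to 1.41) and 0.513 (0.494 to 0.533). Among the shuttle receptors that carry substrates to the cap, Ubqln4 stood at 39.3, 10.2 and 3.61 CPM, lower by 2-fold or more at each step, and Rad23b at 124, 90.7 and 71.0 CPM.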

How the data were processed

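Droplet libraries of 3' ends were made with a v2 kit, per the labels' protocols. The authors deposited natural log values per gene and cell, ln(1 + UMIs scaled to 10000 per cell); Cell Ranger 2.0.0, FastQC and the mm10 build are named in the submitters' processing notes. No source used here gives the settings or the filters on cells and genes. Inverting the log gave whole UMIs for 100.000% of 68606039 non-zero values, within 0.01 UMI, and all levels come from these UMIs; the planned sums of UMIs were therefore computed on recovered counts.

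Cells were clustered with scanpy 1.11.5 on 2000 variable genes without the 48 proteasome genes (30 components, 15 neighbours, resolution 0.5). Clusters were named from marker lists, counting markers in 10% of cells or more. Scrublet, at an expected rate of 0.06, marked 38 of 19144 cells (0.198%), too few to have worked; these were left out and other doublets may remain. UMIs were summed per stage over germ-cell-like cells and scaled to CPM, and ratios were taken for genes with 10 UMIs or more over the 3 stages. Stages were compared by values and counts with no test, since there was 1 library each; 95% intervals are exact (Poisson for levels, binomial for ratios and shares). Thinning to 5000 UMIs left out 0, 11 and 25 cells. Ratios on simulated counts with known changes were checked. TMM and median-of-ratios scaling, totals without mitochondrial and ribosomal protein genes, differences of mean natural log values, all clusters, and thinning were the alternatives.

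Per role and comparison, the genes of highest and lowest ratio and every gene past 2-fold were named, and every proteasome gene was accounted for. The members and gene lists were chosen with earlier results of these data known.
A few genes of the lists are not reported here.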

Additional observations from a re-analysis of the deposited data

How the results depend on the processing

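No proteasome gene past 1.5-fold changed direction under an alternative; genes nearer to no difference did, at most 8 of 48 in a comparison, under TMM and median-of-ratios scaling at E16.5 against E12.5. Of 513 recomputed values, 366 stayed within 1.5-fold of a count or within counting error of a value and 147 did not. Proteasome genes lower by 2-fold or more numbered 16 under TMM and 18 under median-of-ratios scaling at E14.5 against E12.5 (7 under CPM), and 22 and 23 at E16.5 against E12.5 (13 under CPM), against 21.1%, 22.3%, 28.5% and 28.8% of all genes. By differences of mean natural log values, which shrink low genes, 1 was lower by 2-fold and 4 by 1.5-fold at E16.5 against E14.5, where CPM gave 7 and 9; of all genes, 0.241% and 1.05% were. The summed level was 13022, 9434 and 7785 CPM in time order after thinning, 19297, 14496 and 11954 CPM with totals without mitochondrial and ribosomal protein genes, and 9480 CPM at E14.5 over all clusters, so the order of stages held in each. The spread per cell over counting error was 1.40, 1.43 and 1.25 after thinning. The log2 ratio of the highest to the lowest group of cells was, after thinning, 0.12 for the pluripotency list, 0.14 for S phase and -0.067 for G2 and mitosis at E12.5 (0.15, 0.17 and -0.09 unthinned), and 0.076, 0.068 and 0.033 at E16.5 (0.12, 0.11 and 0.06 unthinned).

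No paired analysis was possible because each stage has 1 library and no test was made; for the same reason no replicate could be left out. Depth limits Psmb9, Psmb11 and Psme2b, with at most 321 UMIs at any stage, and the pregranulosa-like cells, with 19 and 22 cells at E12.5 and E16.5. Doublets beyond those called and free RNA were not removed, and their part in the results was not tested.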
